A study of Saccharomyces cerevisiae with 14 samples.

Results

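The 10 genes of sulfate uptake and reduction to sulfide were followed through a wine fermentation, in the order in which sulfate passes through the pathway. They were SUL1 and SUL2 (uptake), MET3, MET14 and MET16 (activation and reduction to sulfite), MET5 and MET10 (reduction to sulfide), MET1 and MET8 (synthesis of siroheme, a cofactor of that last step) and MET22 (removal of a by-product). They were found by gene symbol in the annotation of the array, and each had 1 probe set, among 5449 genes of Saccharomyces cerevisiae read by 5498 probe sets. RNA came from the industrial wine yeast M2, a MATa/α diploid, and from M2 nsf1∆, in which both copies of NSF1 were replaced by the kanMX4 marker. NSF1 encodes a zinc finger transcription factor. Both strains were grown overnight in YPD, then inoculated into sterile filtered Riesling must and left without shaking, with no further treatment. Each strain was sampled 24 h after inoculation (2 arrays), at 20% sugars fermented (2 arrays) and at 85% (3 arrays), 14 arrays in all. The labels call the arrays biological replicates. A single deletion strain stands for the loss of NSF1, and no strain with the gene put back was analysed here.

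Yeast makes methionine and cysteine from inorganic sulfate. The permeases Sul1p and Sul2p bring sulfate into the cell, Met3p (ATP sulfurylase) and Met14p (APS kinase) activate it with ATP, and Met16p (PAPS reductase) reduces it to sulfite, leaving a nucleotide that Met22p breaks down. Sulfite reductase, an enzyme of Met5p and Met10p subunits that carries siroheme, then makes sulfide, which Met17p joins to O-acetylhomoserine to form homocysteine. The genes are known targets of the activator Met4p with its DNA-binding partners Cbf1p, Met31p and Met32p. In winemaking the pathway is known as the source of hydrogen sulfide, an off-odour.

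Values are RMA log2 intensities, in which a difference of 1 is a 2-fold change, and levels are compared between arrays and never between genes. The S. cerevisiae probe sets had medians of 8.87 to 8.95 on the 14 arrays. The array also carries probe sets for S. pombe, taken here as background, with a median of 3.06 and a 95th percentile of 3.62. The 10 genes were above the latter on every array. SUL1 came nearest to it, at 4.86 on M2 85% replicate 1, and was among the dimmest 25% of probe sets. NSF1, listed as USV1, was between 8.92 and 13.19 on the M2 arrays and between 2.95 and 5.90 on those of nsf1∆, with the highest of the latter, 5.90, on replicate 3 at 85%. In a bulk sample, less RNA per cell and fewer cells of a type cannot be told apart. The summed intensity of 16 haploid and mating-type genes, which a diploid represses, was 921 to 932 in M2 at 24 h and 5494 to 6026 at 85%, and 953 to 1157 and then 4772 to 5561 in nsf1∆. That of 11 sporulation and meiosis genes went from between 708 and 853 to between 1904 and 2254 in M2, and from between 855 and 989 to between 2202 and 2327 in nsf1∆. A sum follows the brightest genes most. From 24 h to 85%, 13 of the 16 rose and 2 fell in each strain (limma). Of the 11, 9 rose in each strain, and 1 fell in M2 and 2 in nsf1∆. Of all probe sets 38% rose and 35.2% fell in M2, and 37% and 36% in nsf1∆. The part of these 2 lists in the results below was not tested.

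The courses differed between the genes. MET3, MET14, MET16, MET5 and MET10 were high at 24 h and dropped at 20%, after which MET14, MET16 and MET5 partly came back at 85% and MET3 did not. SUL2 had its low point at 20%, and its mean at 85% was 0.05 above that at 24 h in M2 and 1.44 above it in nsf1∆. MET1 and MET8 stayed within 1.35 and 1.28 on the log2 scale over all 14 arrays, against 4.36 for MET3, 3.55 for MET5, 3.39 for MET16 and 3.30 for MET14.

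**Figure D1:**
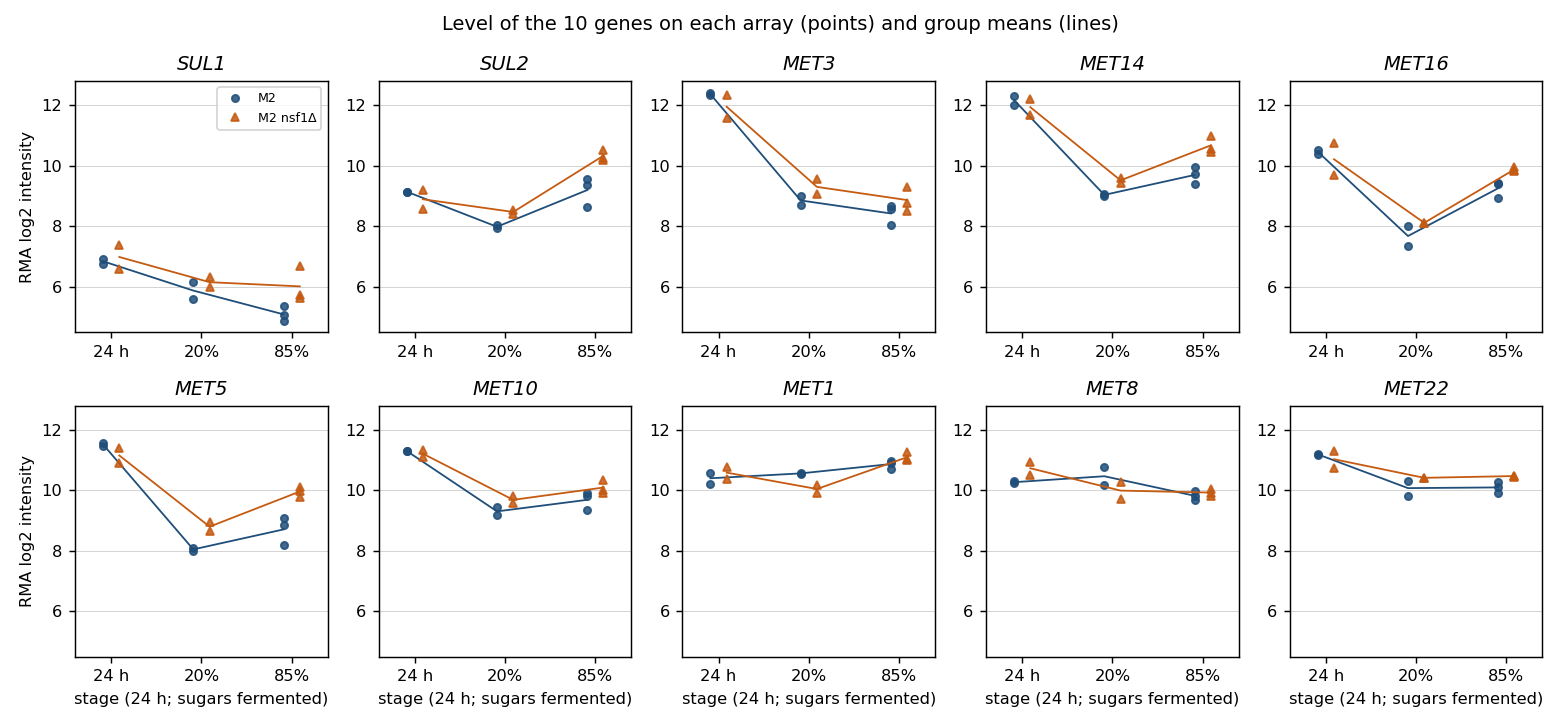
RMA log2 intensity of each of the 10 genes (vertical axis) at 24 h, 20% and 85% sugars fermented (horizontal axis), with circles for M2 arrays, triangles for M2 nsf1∆ arrays and lines through the group means. MET3 stays down after 20% on every array, from 12.40 at most to no more than 9.55, while MET16 reaches at least 8.94 again on every 85% array.

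The permeases took different courses. In M2, SUL1 went from 6.76 and 6.93 at 24 h to 6.14 and 5.61 at 20%, then to 4.86, 5.05 and 5.35 at 85%. In nsf1∆ the same stages gave 6.60 and 7.37, then 5.98 and 6.32, then 6.67, 5.63 and 5.74. SUL1 was thus lower at each stage in M2 with no overlap, whereas the nsf1∆ arrays at 85% lay on both sides of those at 20%. SUL2 in M2 went from 9.15 and 9.14 to 7.94 and 8.03, then to 9.38, 8.64 and 9.57. The nsf1∆ arrays gave 9.21 and 8.58, then 8.39 and 8.55, then 10.54, 10.19 and 10.27. All 3 nsf1∆ arrays at 85% were above every other array of the series for SUL2.

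The activation genes were far lower after 24 h, and MET3 had the widest range of the 10. MET3 in M2 went from 12.40 and 12.32 at 24 h to 8.71 and 8.99 at 20%, then to 8.55, 8.05 and 8.67 at 85%. In the deletion strain it went from 12.34 and 11.56 to 9.06 and 9.55, then to 9.31, 8.51 and 8.78. No array of a later stage came within 2 log2 units of the 24 h arrays of its strain. MET14, the next step, went from 12.02 and 12.32 to 9.06 and 9.01, then to 9.72, 9.41 and 9.96 in M2. Its nsf1∆ values were 12.20 and 11.67, then 9.43 and 9.61, then 10.996, 10.46 and 10.57. The 3 stages did not overlap in either strain, with 20% lowest.

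The reductases shared the low point at 20%. MET16 in M2 went from 10.53 and 10.40 at 24 h to 7.36 and 7.998 at 20%, then to 9.39, 8.94 and 9.44 at 85%. In nsf1∆ it went from 10.74 and 9.69 to 8.12 and 8.10, then to 9.97, 9.82 and 9.85. At 85% the nsf1∆ arrays lay between the pair of nsf1∆ arrays at 24 h. MET5, the subunit of sulfite reductase that carries siroheme, went from 11.48 and 11.56 to 8.09 and 8.01, then to 8.85, 8.20 and 9.07 in M2. Its nsf1∆ values were 11.41 and 10.89, then 8.66 and 8.94, then 10.11, 9.79 and 9.98. Every nsf1∆ array at 20% and at 85% was above every M2 array of the same stage. MET10, the flavoprotein subunit, went from 11.30 on both M2 arrays to 9.44 and 9.17, then to 9.80, 9.36 and 9.91. For nsf1∆ the arrays read 11.32 and 11.10, then 9.57 and 9.80, then 10.35, 9.92 and 10.01. The MET10 arrays at 20% and 85% overlapped in M2 and not in nsf1∆.

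The siroheme genes had the narrowest ranges. MET1, the methyltransferase of siroheme synthesis, went from 10.58 and 10.22 at 24 h to 10.57 and 10.55 at 20%, then to 10.91, 10.72 and 10.98 at 85% in M2. The deletion strain gave 10.78 and 10.39, then 10.18 and 9.92, then 11.26, 11.005 and 11.02. MET1 was lowest at 20% in nsf1∆, whereas the M2 arrays at 20% lay between those at 24 h. MET8, which turns its product into siroheme, went from 10.24 and 10.30 to 10.17 and 10.76, then to 9.97, 9.68 and 9.82 in M2. Its nsf1∆ values were 10.95 and 10.51, then 10.27 and 9.72, then 10.04, 9.82 and 9.92. MET8 was lowest at 85% in M2, where the arrays did not overlap those of the other stages. MET22 in M2 went from 11.21 and 11.18 to 9.83 and 10.32, then to 10.27, 9.91 and 10.12. In nsf1∆ it went from 11.31 and 10.75 to 10.41 and 10.42, then to 10.44, 10.49 and 10.49. The MET22 arrays at 20% and 85% overlapped in M2 and lay close together in nsf1∆.

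The early step, 20% against 24 h, was a fall of the whole route from uptake to sulfide in M2. Of the 10 genes 8 fell and the others, MET1 and MET8, had log2 changes of 0.16 (SE 0.17) and 0.20 (SE 0.22), while 26.4% of all probe sets fell (limma). The median change of the 10 was -1.58, against 0.02 over all probe sets. MET3 was 11.4-fold lower (log2 change -3.51, SE 0.30, limma adjusted p = 1.69e-06) and MET5 11.1-fold lower (-3.47, SE 0.24, adjusted p = 4.43e-07). MET14 was at -3.13 (SE 0.22), MET16 at -2.79 (SE 0.29) and MET10 at -2.00 (SE 0.20), with limma adjusted p between 4.82e-07 and 7.84e-06. SUL2, MET22 and SUL1 fell less, by 1.16, 1.12 and 0.97, with limma adjusted p of 0.00238, 0.000381 and 0.0251. The call of SUL1 was lost without M2 24 h replicate 1, M2 24 h replicate 2 or M2 20% replicate 2 (adjusted p = 0.0627, 0.113 and 0.172). The other 7 calls held without any 1 array.

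In nsf1∆ 8 of the 10 genes also fell in the early step, against 18.3% of all probe sets (limma). The median change was -1.18, against 0.02 over all probe sets. MET3 was 6.27-fold lower (log2 change -2.65, SE 0.30, limma adjusted p = 3.75e-05), and MET14, MET5, MET16 and MET10 were at -2.42, -2.35, -2.10 and -1.52, with adjusted p between 9.62e-06 and 0.000147. MET8, MET22 and MET1 fell by 0.74, 0.62 and 0.54, with limma adjusted p of 0.0173, 0.0228 and 0.0255. SUL1 had a change of -0.83 (adjusted p = 0.062) and SUL2 of -0.42 (adjusted p = 0.22). The calls of MET1, MET8 and MET22 were lost when nsf1∆ 24 h replicate 1 or nsf1∆ 20% replicate 2 was left out, and that of MET22 also without nsf1∆ 20% replicate 1. SUL1, in turn, was called lower without nsf1∆ 85% replicate 1 (-0.83, limma adjusted p = 0.0202) and with array weights (-0.83, adjusted p = 0.028). Without nsf1∆ 24 h replicate 1 its change was -1.22. On nsf1∆ 24 h replicate 2, 9 of the 10 genes were lower than on replicate 1, with a median difference of -0.53 against 0.0044 over all probe sets.

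The early falls differed between the strains by amounts that did not pass. With the difference itself tested, none of the 10 genes was called, while 1.6% of all probe sets were (limma). At an unadjusted p under 0.05 were 4 of the 10, MET14, MET5, MET1 and MET8, and 854 of all 5498 probe sets. MET5 had the largest difference among the 10, 1.11 (SE 0.34, limma adjusted p = 0.125), a smaller fall in nsf1∆. Over the 2899 other probe sets called in this step in M2, with the M2 mean at 24 h set to 0 and that at 20% to 1, the nsf1∆ arrays at 24 h lay at 0.096 and 0.281 and those at 20% at 0.867 and 0.834. The probe sets were picked for their change in M2, so a shorter distance in nsf1∆ can follow from that choice. The part of this distance in the strain differences was not tested.

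In the late step, 85% against 20%, changes went both ways in M2. SUL2, MET14, MET16 and MET5 rose, 4 of the 10, against 33.1% of all probe sets, and SUL1 and MET8 fell, 2 of the 10, against 31.9% (limma), so the counts lay near those of all probe sets. MET16 rose 2.99-fold (log2 change 1.58, SE 0.26, limma adjusted p = 0.000143) and SUL2 2.32-fold (1.21, SE 0.24, adjusted p = 0.000546). MET14 and MET5 both rose by 0.66 (SE 0.20 and 0.22, limma adjusted p = 0.0119 and 0.0189). SUL1 fell by 0.79 and MET8 by 0.65 (limma adjusted p = 0.0348 and 0.0118). MET10, MET1, MET22 and MET3 had changes of 0.38, 0.31, 0.02 and -0.43, with adjusted p between 0.0753 and 0.91. MET10 was called higher with array weights (0.46, limma adjusted p = 0.024) and without M2 85% replicate 2 (0.55, adjusted p = 0.0122). The count of 6 became 3 without M2 20% replicate 2, where MET14, MET5 and MET8 were no longer called, and MET5 was also lost without M2 20% replicate 1, M2 85% replicate 1 or M2 85% replicate 3. SUL1 was lost without M2 20% replicate 1, M2 85% replicate 1 or M2 85% replicate 2, whereas MET16 and SUL2 held without any 1 array.

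In nsf1∆ SUL2, MET14, MET16, MET5 and MET1 rose in the late step, against 31.6% of all probe sets, and none of the 10 fell, where 33.9% of all probe sets did (limma). None of the 10 fell at an unadjusted p under 0.05 either, a threshold that 3765 of all 5498 probe sets passed in one direction or the other. SUL2 rose 3.63-fold (log2 change 1.86, SE 0.24, limma adjusted p = 1.49e-05) and MET16 3.40-fold (1.77, SE 0.26, adjusted p = 5.42e-05). MET5, MET14 and MET1 rose by 1.16, 1.16 and 1.05, with limma adjusted p of 0.000463, 0.000231 and 6.26e-05. MET10 had a change of 0.41 (limma adjusted p = 0.0592). It was called higher with array weights (0.32, adjusted p = 0.0498), without nsf1∆ 85% replicate 2 (0.50, 0.0419) and without M2 85% replicate 2 (0.41, 0.0314). MET3 had a change of -0.44 (SE 0.27, adjusted p = 0.169), close to the -0.43 of M2, and was called lower with array weights (-0.60, adjusted p = 0.02) and without nsf1∆ 85% replicate 1 (-0.66, adjusted p = 0.0447). The 5 rises held without any 1 array. With the difference between strains tested, none of the 10 genes was called, while 0.2% of all probe sets were (limma). Of the 10, MET1 alone had an unadjusted p under 0.05, as had 764 of all 5498 probe sets.

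**Figure D2:**
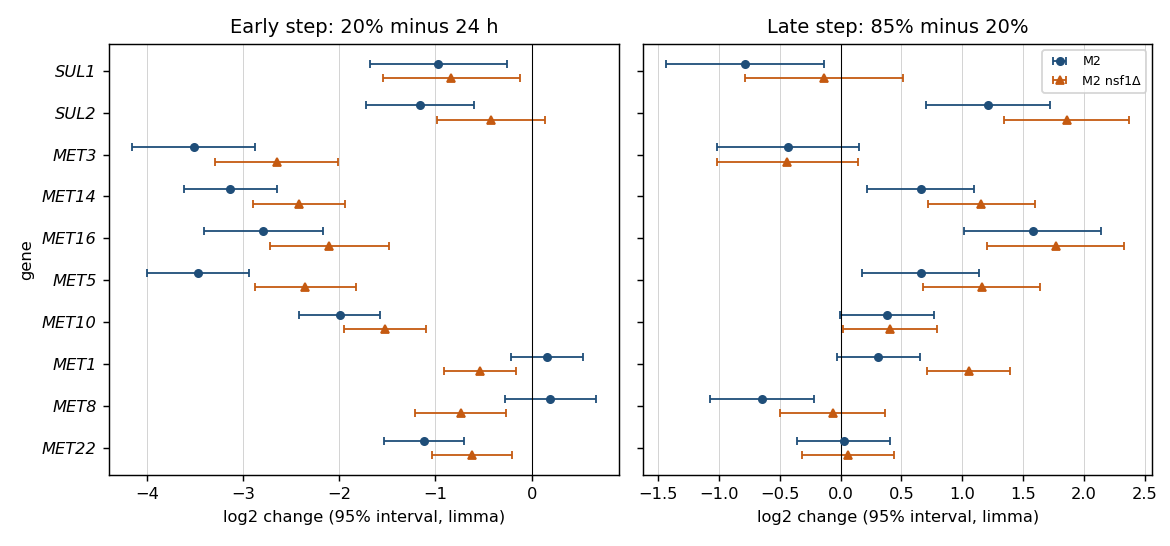
Log2 change of each gene in the early step (left, 20% minus 24 h) and the late step (right, 85% minus 20%), with circles for M2, triangles for M2 nsf1∆ and bars for the 95% interval from limma. In the early step MET3, MET14, MET16, MET5 and MET10 lie left of 0 in both strains, and in the late step SUL2, MET14, MET16 and MET5 lie right of 0 while MET3 is at -0.43 and -0.44.

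The bend of the course at 20% was then measured as a shape: the mean at 20% minus the average of the means at 24 h and 85%. A shape below 0 takes in courses that fall and then stay down. A called fall followed by a called rise was seen in M2 for SUL2, MET14, MET16 and MET5, and in nsf1∆ for MET14, MET16, MET5 and MET1. The shape lay below 0 past the threshold in M2 for 7 of the 10 genes, SUL2, MET3, MET14, MET16, MET5, MET10 and MET22, against 24.3% of all probe sets (limma). In nsf1∆ it did so for 7 genes as well, with MET1 in place of MET22, against 19.3% (limma). MET16 had the shape furthest below 0 in both strains, -2.18 (SE 0.24, limma adjusted p = 1.54e-05) and -1.93 (SE 0.24, adjusted p = 5.82e-05). MET5 followed in M2 at -2.06 and MET14 in nsf1∆ at -1.79. MET3 had a shape of -1.54 in M2, with a first step of -3.51 and a second of -0.43. MET1 had a shape of -0.80 in nsf1∆ (limma adjusted p = 0.00086) and -0.07 in M2 (adjusted p = 0.706). The difference between the strains, tested over the shape, was called for none of the 10 genes, against 0.691% of all probe sets (limma). MET1 and MET8 had an unadjusted p under 0.05, as had 802 of all 5498 probe sets. Without M2 20% replicate 1 MET22 was lost and MET8, in the other direction, was gained in M2, and without nsf1∆ 20% replicate 1 MET3 was lost in nsf1∆. MET22 in nsf1∆, at -0.34 (limma adjusted p = 0.111), was called with array weights (-0.34, adjusted p = 0.0363) and without nsf1∆ 24 h replicate 2 (-0.48, adjusted p = 0.0222).

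Of the log2 fall between 24 h and 20%, MET16 regained 56.7% by 85% in M2 and 84.1% in nsf1∆. MET14 regained 21.0% and 47.8%, and MET5 19.0% and 49.3%. MET10 regained 19.1% and 26.7%, although its late step passed in neither strain in the main fit, and only in some alternatives. MET22, with no called rise, regained 2.12% and 9.67%. MET3, with no rise, had shares of -12.3% and -16.5%, and SUL1 one of -81.1% in M2. SUL2 regained 104.6% in M2, and in nsf1∆ MET1 regained 194.2% and MET8 had a share of -8.84%. No share is given where the early fall was not called. Both steps share the arrays at 20%, and the regained share is given without a test.

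Over the whole course, 85% against 24 h, 7 of the 10 genes fell in M2, where 35.2% of all probe sets did, and 7 in nsf1∆, where 36% did (limma). MET8 in M2, at -0.45 (limma adjusted p = 0.0565), was called lower in 9 of 22 alternatives, with an adjusted p of 0.0447 after shifting arrays to one median and 0.0125 with the compared arrays alone. In nsf1∆ MET3 was at -3.09 (SE 0.27, limma adjusted p = 2.57e-07), MET14 at -1.26, MET5 at -1.19, MET10 at -1.12, SUL1 at -0.97, MET8 at -0.80 and MET22 at -0.56. SUL2 rose by 1.44 there (SE 0.24, limma adjusted p = 9.88e-05), and in M2 it had a change of 0.05 (adjusted p = 0.851). MET1 rose in both strains, by 0.47 in M2 and 0.51 in nsf1∆ (limma adjusted p = 0.016 and 0.0105), and 38% and 37% of all probe sets rose. MET16 fell by 1.21 in M2 (limma adjusted p = 0.000902), while in nsf1∆ its change was -0.33 (adjusted p = 0.266). Without nsf1∆ 24 h replicate 2 SUL1 and MET1 were no longer called and MET16 was. MET22 was lost without nsf1∆ 24 h replicate 1, and MET1 was lost in M2 without M2 24 h replicate 2. The whole-course change differed between the strains for MET5, by 1.62 (SE 0.31, limma adjusted p = 0.0257), and for MET14, by 1.21 (SE 0.29, adjusted p = 0.05, just under the threshold before rounding), against 0.909% of all probe sets called in that direction. That of SUL2 differed by 1.39 (SE 0.34, adjusted p = 0.0564). The call of MET5 was lost without M2 24 h replicate 1, M2 24 h replicate 2 or nsf1∆ 24 h replicate 2, and that of MET14 held in 2 of the 14 fits without 1 array.

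The strains were then set against each other at each stage, since the study asked how the loss of NSF1 bears on sulfur genes. At 24 h none of the 10 genes was called, and 0.127% of all probe sets were (limma). None had an unadjusted p under 0.05, while 539 of all 5498 probe sets had. The log2 differences, nsf1∆ minus M2, lay between -0.41 for MET3 and 0.46 for MET8. The 95% interval reached from -1.05 to 0.22 for MET3 and from -0.01 to 0.93 for MET8.

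At 20% none of the 10 was called either, and 0.346% of all probe sets were (limma). MET5, MET1 and MET8 had an unadjusted p under 0.05, as had 810 of all 5498 probe sets. SUL2, MET3, MET14, MET16, MET5, MET10 and MET22 were higher on both nsf1∆ arrays than on both M2 arrays, as were 30.1% of all probe sets. MET5 had the largest difference, 0.75 (SE 0.24, limma adjusted p = 0.162). MET1 was lower on both nsf1∆ arrays, with a difference of -0.52 (SE 0.17, limma adjusted p = 0.178).

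At 85% 4 of the 10 genes were higher in nsf1∆, SUL1 and SUL2 of uptake, MET14 of activation and MET5 of sulfite reduction, against 4.95% of all probe sets (limma). MET5 was 2.38-fold higher (log2 difference 1.25, SE 0.20, limma adjusted p = 0.00358), SUL2 2.20-fold (1.14, SE 0.21, adjusted p = 0.00892) and MET14 1.97-fold (0.98, SE 0.18, adjusted p = 0.00892). SUL1 was 1.90-fold higher (0.93, SE 0.27, limma adjusted p = 0.0497). MET16, MET3, MET10, MET22, MET1 and MET8 had differences of 0.62, 0.44, 0.41, 0.38, 0.23 and 0.11, with adjusted p between 0.115 and 0.763. The 3 nsf1∆ arrays were above the 3 M2 arrays for 8 of the 10 genes, all but MET3 and MET8, as they were for 15.2% of all probe sets. The median difference of the 10 was 0.53, against -0.01 over all probe sets. At an unadjusted limma p under 0.05 were 7 of the 10, all but MET3, MET1 and MET8, and 1419 of all 5498 probe sets. SUL2, MET14, MET16, MET5, MET8 and MET22 are among the genes the study named from these same arrays, so the count is not independent evidence of their direction. Of these, MET16, MET22 and MET8 did not pass (limma adjusted p = 0.115, 0.152 and 0.763), and MET16 was called when either nsf1∆ array at 24 h was left out (adjusted p = 0.0392).

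Single arrays moved these values. M2 85% replicate 2 was lower than replicate 3 for all 10 genes and lower than replicate 1 for 9, and without it the differences of MET5, MET14 and SUL2 were 1.00, 0.83 and 0.86 (limma adjusted p = 0.00954, 0.0357 and 0.0228). In nsf1∆, replicate 1 was higher than replicates 2 and 3 for 9 of the 10 genes. Without it the differences were 1.18, 0.82 and 1.03 (limma adjusted p = 0.0139, 0.0272 and 0.0305), and that of SUL1 was 0.59 (adjusted p = 0.149). Without nsf1∆ 85% replicate 3 the differences of MET5, MET14 and SUL2 were 1.24, 1.03 and 1.17 (limma adjusted p = 0.0117, 0.0179 and 0.0208). The calls of these 3 genes held without any 1 array, and that of SUL1 was lost in 10 of 14 such fits, as well as in the fits with a common median, a repeated quantile normalization, the replicate number as a block, every probe set of the table (adjusted p = 0.0741) or the compared arrays alone (0.0965).

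**Figure D3:**
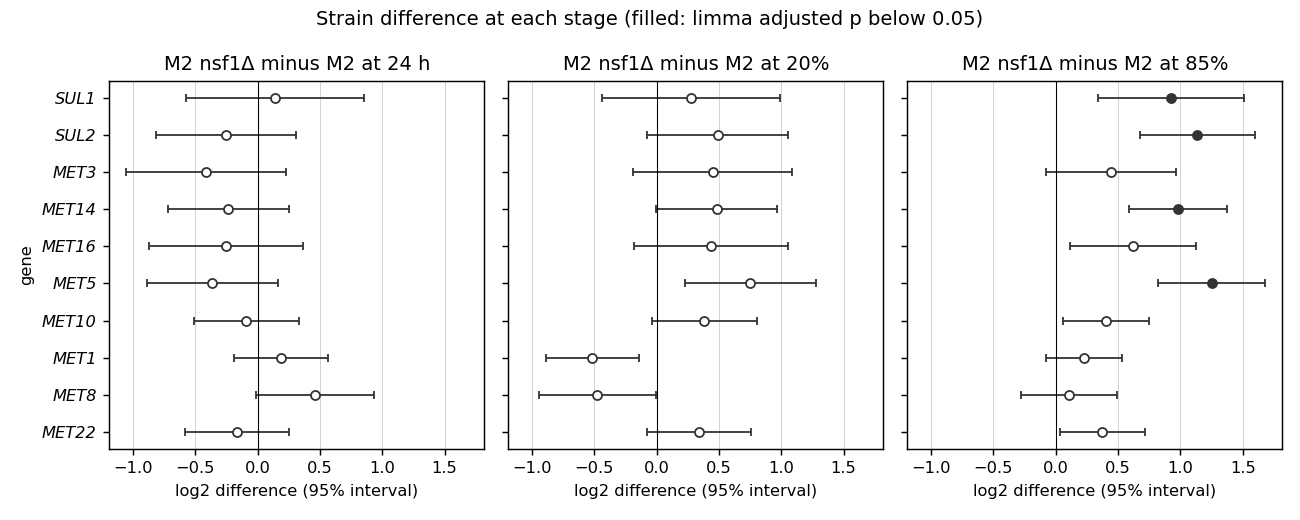
Log2 difference between the strains (M2 nsf1∆ minus M2) for each gene at 24 h, 20% and 85% sugars fermented, with bars for the 95% interval from limma and filled circles where the adjusted p was below 0.05. No circle is filled at 24 h or 20%, and at 85% those of SUL1, SUL2, MET14 and MET5 are, at 0.93, 1.14, 0.98 and 1.25.

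Pairs of genes that act side by side did not move in step over the whole course. The difference between 2 probe sets on the same array cancels whatever shifts both alike, and its change over the stages shows unequal change of the pair. Relative to its M2 mean at 24 h, MET14 minus MET3 was between -0.19 and 0.57 on all arrays at 24 h and 20% in both strains. At 85% it was 1.36, 1.56 and 1.48 in M2 and 1.88, 2.15 and 1.98 in nsf1∆, so that MET14 was nearer to its 24 h level than MET3 on every array at 85%. SUL2 minus SUL1 was between -1.09 and 0.30 at 24 h and 20%, and between 1.29 and 2.26 at 85%. MET5 minus MET10, the 2 subunits of sulfite reductase, was -1.16, -1.37 and -1.05 at 85% in M2 and -0.46, -0.34 and -0.25 in nsf1∆, and at 20% it was -1.57 and -1.38 against -1.13 and -1.07. It was below the M2 mean at 24 h on every later array. The strains did not overlap at any stage, with nsf1∆ higher at 20% and 85%. At 24 h nsf1∆ was the lower, at -0.12 and -0.42, against -0.04 and 0.04 in M2. For MET14 minus MET3 too the strains did not overlap at 85%. These differences are descriptions with no test.

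**Figure D4:**
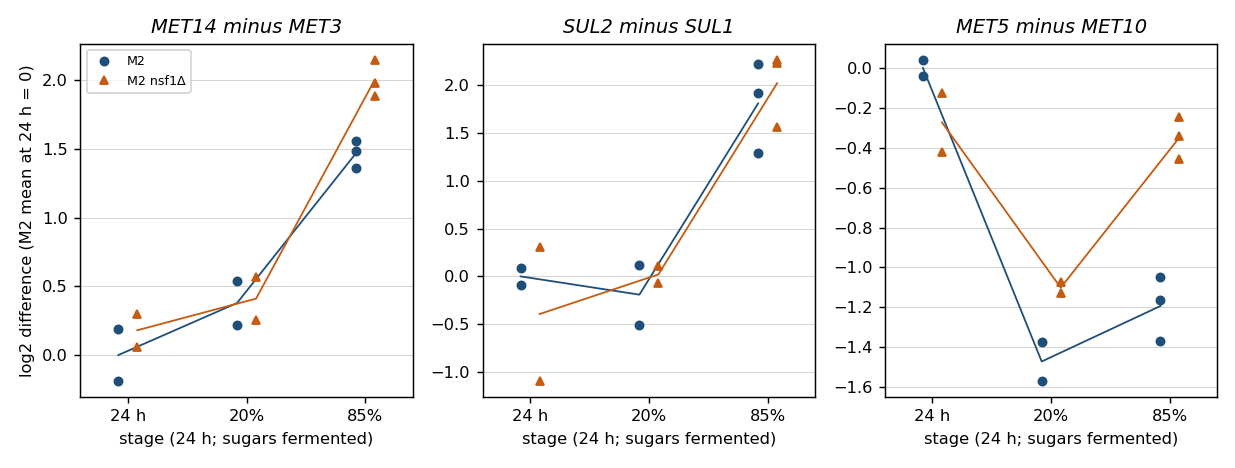
Difference between the log2 intensities of 2 genes on the same array, relative to the M2 mean at 24 h (vertical axis), at 24 h, 20% and 85% sugars fermented (horizontal axis), with circles for M2 arrays, triangles for M2 nsf1∆ arrays and lines through the group means. MET14 minus MET3 and SUL2 minus SUL1 rise at 85% on every array, to at least 1.36 and 1.29. The strains do not overlap at 85% for MET14 minus MET3, nor at any stage for MET5 minus MET10, where nsf1∆ is lower at 24 h and higher later.

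Likeness of course was measured as the root mean square difference over the 14 arrays, after each gene was centred on its own mean. MET14 and MET5 were each other's nearest among all genes tested, at 0.17. The genes next in course were GRX8 for MET3 (0.34), ILM1 for MET10 (0.18), TMA108 for SUL1 (0.26), YPL264C for SUL2 (0.25), ADE12 for MET1 (0.18), SPC72 for MET8 (0.16) and TYR1 for MET22 (0.13). The 3 nearest to MET16 were PRY2, BNA3 and RPS9A (0.34, 0.34 and 0.40). Thus 2 of the 10 genes, MET14 and MET5, had one of the other 9 as the nearest. Genes of small range, such as MET1, lie near many others on this measure. The arrays share 3 stages, and the values are a description.

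Genes around the pathway were counted from 4 lists. Of 7 genes of sulfide use, sulfite export and homocysteine metabolism, 2 rose and 2 fell in the early step in M2 (limma). Of all probe sets 26.5% rose and 26.4% fell there. In nsf1∆ 2 rose and 3 fell, where 19.9% of all probe sets rose and 18.3% fell. CYS3, which makes cysteine from cystathionine, was at -2.40 and -1.97, and SSU1, the sulfite export pump, rose by 2.31 and 2.10. In the late step 2 rose and 3 fell in M2, where 33.1% of all probe sets rose and 31.9% fell, with STR3, a cystathionine lyase, at 2.00 and MET17 at -1.57. In nsf1∆ 3 rose and 3 fell, against 31.6% and 33.9%, with STR3 at 2.05 and SSU1 at -1.36. At 85% 3 of the 7 were higher in nsf1∆, against 4.95% of all probe sets, with MET17 at 0.95 (SE 0.19, limma adjusted p = 0.0113). The study had named MET17 as higher from these same arrays, so this count is not independent evidence.

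Of 6 regulators, 3 rose and 1 fell in the early step in M2, against 26.5% and 26.4% of all probe sets, and 2 rose and 1 fell in nsf1∆, against 19.9% and 18.3% (limma). MET4 was at 0.79 and 0.73 and MET32 at -1.43 and -1.28. In the late step 5 rose and 1 fell in each strain, with MET32 at 2.49 and 3.21 and CBF1 at -0.77 and -1.02. Of all probe sets 33.1% rose and 31.9% fell in M2, and 31.6% and 33.9% in nsf1∆. The shape at 20% was below 0 past the threshold for 4 of the 6 in M2, against 24.3% of all probe sets (limma). They were MET32 (-1.96), MET28 (-0.87), MET31 (-0.72) and MET4 (-0.30). In nsf1∆ it was so for the first 3 of these, against 19.3%, while that of CBF1 was above 0 in both strains. Between the strains at 85% 2 of the 6 were higher in nsf1∆ and 1 was lower, against 4.95% and 3.89% of all probe sets, with MET32 at 0.80 (limma adjusted p = 0.00892) and CBF1 at -0.53 (adjusted p = 0.0341). The 2 that were higher, MET28 and MET32, had been named by the study from these same arrays, so their count is not independent evidence.

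Of 9 genes that supply reductant or the precursor of siroheme, 2 rose and 3 fell in the early step in M2, against 26.5% and 26.4% of all probe sets, with HEM1, the first enzyme of heme synthesis, at 0.92 and TRX1, a thioredoxin, at -0.88 (limma). In nsf1∆ 1 rose, HEM1 at 0.88, and 2 fell, with HEM4 at -0.47, against 19.9% and 18.3%. In the late step 4 fell in each strain, against 31.9% of all probe sets in M2 and 33.9% in nsf1∆, with HEM2 at -1.72 in M2 and TRX1 at -1.49 in nsf1∆. None of the 9 passed between the strains at 85%, where 4.95% of all probe sets were higher in nsf1∆ and 3.89% lower (limma). An unadjusted p under 0.05 was had by 1 of them, and by 1419 of all 5498 probe sets.

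Of 7 measured transporters and enzymes for other sulfur sources, 1 rose and 3 fell in the early step in M2, against 26.5% and 26.4% of all probe sets, with JLP1, a sulfonate dioxygenase, at 0.44 and OPT1, an oligopeptide transporter, at -1.60 (limma). In nsf1∆ 3 fell, against 18.3%, with MMP1, the S-methylmethionine permease, at -1.52. In the late step MUP3, a low affinity methionine permease, rose by 2.43 in M2 and 3.32 in nsf1∆. It was the 1 gene of the list that rose there, where 33.1% of all probe sets rose in M2 and 31.6% in nsf1∆. In M2 3 fell and in nsf1∆ 2, against 31.9% and 33.9%, with MMP1 at -2.40 in M2 and YCT1, a cysteine transporter, at -1.33 in nsf1∆. At 85% 2 of the 7 were higher in nsf1∆, against 4.95%, with MMP1 at 1.44 (limma adjusted p = 0.00635). MMP1 too had been named by the study from these same arrays, so this count is not independent evidence.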

How the data were processed

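Log2 intensities were used as deposited in 1 table. The authors had made them by RMA, a method of background correction, quantile normalization and summary of the probes of a set. The RMA version is not given in the sources used here. The labels express the later stages as percent of glucose fermented, and the study's methods as percent of sugars. Probe sets were paired with genes through GEO's platform annotation. Of 10928 probe sets, 5498 with 1 S. cerevisiae gene (5449 genes) were tested. Those of S. pombe (1746), controls (213), 1 of several genes and 3470 with no listed gene were left out. The number of arrays limits the precision.

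Strain and stage, as labelled, defined the 6 groups. One limma (3.58.1, R 4.3.3) fit of the 6 means on 14 arrays, with 8 residual and 5.14 prior degrees of freedom, gave every contrast, and p-values were adjusted after Benjamini and Hochberg over 5498 probe sets (threshold 0.05). Intervals are at 95%. The script was tested on simulated data. Descriptions and figures were made with Python 3.11.15, numpy 2.4.6, pandas 2.3.3, scipy 1.17.1 and matplotlib 3.10.9. The 10 genes and the lists of related genes were chosen with earlier results of these data known. All 10 are named, with the gene nearest in course to each (3 for MET16) and, from each list, the largest change each way among those that passed. As alternatives, each array was left out in turn, and the fit was repeated with the replicate number as a block, without the dimmest 25% of probe sets, with every probe set of the table, after shifting arrays to a common median or a further quantile normalization, with an intensity trend, with array weights, and on the compared arrays alone. The methods' t-test was also run at 85%. Promoter sequences were not used here.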

Additional observations from a re-analysis of the deposited data

Results flagged for a closer look

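The change from 24 h to 85% sugars fermented differed between the strains for MET5 and MET14 by the test of the difference itself. For MET5, the siroheme-carrying subunit of sulfite reductase, the log2 change was -2.81 in M2 and -1.19 in nsf1∆, a difference of 1.62 (SE 0.31, limma adjusted p = 0.0257). For MET14, the APS kinase, it was -2.47 in M2 and -1.26 in nsf1∆, a difference of 1.21 (SE 0.29, limma adjusted p = 0.05, just under the threshold before rounding). Without 1 array the difference lay between 1.35 and 1.88 for MET5 (adjusted p from 0.0145 to 0.141) and between 0.95 and 1.48 for MET14 (adjusted p from 0.0223 to 0.231). On nsf1∆ 24 h replicate 2, one of the arrays this comparison rests on, 9 of the 10 genes were lower than on replicate 1. Without that array the differences were 1.35 for MET5 and 0.95 for MET14, and neither was called (limma adjusted p = 0.141 and 0.231).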

How the results depend on the processing

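With 2 or 3 arrays a group the precision is low. No alternative turned the direction of a called change. The number of the 10 genes called between the strains at 85% was 4, and it was 0 by the methods' t-test after Benjamini-Hochberg adjustment and 3 at its unadjusted threshold (SUL2, MET14 and MET5). For the early step in nsf1∆ the 8 calls became 5 with the arrays compared alone. For the strain difference in the change from 24 h to 85%, 2 calls became 1 with all probe sets of the table, 0 with the arrays compared alone, and 3 with no dim probe sets, one median, repeated quantile normalization, an intensity trend or array weights. Leaving out 1 array gave between 3 and 6 calls for the late step in M2, between 5 and 9 for the early step in nsf1∆, and between 0 and 4 for the strain difference from 24 h to 85%.

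Deviations from the group means had a median r of -0.04 over 31 pairs of same-numbered arrays and 0.03 over 50 other pairs. In groups of 2 arrays the deviations are exact opposites, so these medians cannot decide whether the numbers pair arrays. At 85% the same-numbered pairs had r of 0.03, 0.23 and 0.57, and the others lay between -0.46 and 0.36. With the replicate block 5 genes were called in the late step in M2 in place of 6, and 3 between the strains at 85% in place of 4, SUL1 being lost both times. In the strain difference from 24 h to 85% the block called SUL2 in place of MET14, and it changed no other call. Leaving out the dimmest probe sets removed SUL1 from the test and added SUL2 in that difference, with no other change of call. The change of SUL2 from 24 h to 85% in M2, not called, was -0.0242 with the block.

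Changes not called turned sign in some fits. The strain difference of MET8 at 85% was -0.0414 with array weights, and the shape of SUL1 at 20% in M2 was 0.0579 after repeated quantile normalization. Without 1 array the ranges were as follows. In M2, MET1 and MET8 had early changes of -0.0224 to 0.35 and -0.10 to 0.49, MET22 a late change of -0.22 to 0.27, SUL2 a whole-course change of -0.13 to 0.33, and SUL1 and MET1 a shape at 20% of -0.36 to 0.18 and -0.17 to 0.0183. In nsf1∆, SUL1 and MET8 had late changes of -0.47 to 0.055 and -0.34 to 0.21 and MET16 a whole-course change of -0.86 to 0.19, called at the former (adjusted p = 0.00651). The strain differences at 24 h were -0.24 to 0.53 for SUL1, -0.56 to 0.0629 for SUL2, -0.50 to 0.0329 for MET14, -0.78 to 0.28 for MET16, -0.20 to 0.0214 for MET10, -0.0094 to 0.38 for MET1 and -0.45 to 0.12 for MET22. The mean over the probe sets of a gene was not run, since each of the 10 has 1 probe set, and the shape difference uses all groups, so that it has no fit with the arrays compared alone.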
